A study of Homo sapiens with 7 samples.

Results

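Aminoacyl-tRNA synthetases are the enzymes that load each amino acid onto its tRNA, and their mRNA was examined after targeting of ZFP36L2 in MOLM13 cells, an established human line of acute myeloid leukemia. The members were all listed genes with a synthetase symbol, together with the scaffold proteins AIMP1 and AIMP2. This gave 39 of the 11408 genes with values, of which 20 encode cytosolic enzymes, 17 encode mitochondrial enzymes (symbols ending in 2) and 2 encode scaffold proteins. GARS and KARS, which serve both compartments, were counted as cytosolic. Poly(A)-selected RNA was sequenced in 7 libraries, all from MOLM13 cells collected 6 days after transduction with a guide RNA. As controls, 3 libraries had the non-targeting guide sgRosa, and the other 4 carried a guide against ZFP36L2, with 2 libraries for each of 2 guides. The guides are called guide 3 and guide 5 after the deposited column names, because the labels number them differently and nothing pairs the numbering. Whether the replicates came from separate cultures is not stated, so p-values measure only the spread between these libraries, which may be technical.

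Each synthetase recognises its amino acid and its tRNAs and joins them at the cost of ATP, and cells keep separate enzymes, encoded by nuclear genes, for the cytosol and for mitochondria. Several cytosolic enzymes are bound together by AIMP proteins in the multisynthetase complex. When uncharged tRNA or other stress activates the integrated stress response, the transcription factor ATF4 raises amino acid synthesis, amino acid transport and many cytosolic synthetases, while WARS, the tryptophanyl enzyme, is also known as a target of interferon gamma.

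The libraries held 16907955 to 38807816 reads on listed genes, and no member had fewer than 88 reads in any library. ZFP36L2 mRNA was higher in the libraries labelled as targeted, at 337, 334 and 311 CPM (reads scaled to library size) with sgRosa, 1130 and 1350 with guide 3 and 734 and 690 with guide 5. Its mRNA level therefore gives no check that the gene was disrupted, and groups are named below as labelled. In CPM the sgRosa replicate 2 library stood apart, with a median over all genes of 0.21 on the log2 scale relative to the sgRosa mean. The other sgRosa libraries were at -0.12 and -0.11 and the guide libraries at -0.08 to -0.01. By share of reads sgRosa replicate 2 did not stand apart, as the members took 0.733%, beside 0.748% and 0.734% in the other sgRosa libraries. The part of the scaling in its CPM was not tested. Of 8 markers of myeloid blasts 7 were listed, summing to 1190 to 1410 CPM with sgRosa and 1310 to 1670 CPM with the guides. Of 5 T cell markers CD3D alone was listed, at 13.6 to 18.5 CPM with sgRosa and 5.7 to 7.98 CPM with the guides, and of 5 epithelial markers KRT18 alone was listed, at 3.64 CPM or less. No B cell, erythroid, megakaryocyte or fibroblast marker was listed. The part of these markers in the results was not tested.

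Promoter windows from RefSeq (GRCh38.p14), 250 bases before to 50 bases after each annotated start, were found for 32 of the 39 members. The letters TGATGNAA, where N is any base, resemble the element bound by ATF4 with its C/EBP partners, and were searched on both strands (TTNCATCA on the other). They were present in a window of 7 of 16 cytosolic members, 1 of 14 mitochondrial members and 4.46% of all 27305 genes in the table. The sites are printed in the direction of the gene with the match in capitals, and are shown because the values of these genes in each guide are set against the motif below.
AARS, chr16:70289675-70289704: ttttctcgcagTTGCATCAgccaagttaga
CARS, chr11:3057407-3057436: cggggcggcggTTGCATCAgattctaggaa
GARS, chr7:30594834-30594863: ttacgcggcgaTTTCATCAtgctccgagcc
IARS, chr9:92293692-92293721: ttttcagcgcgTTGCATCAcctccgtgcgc
MARS, chr12:57488053-57488082: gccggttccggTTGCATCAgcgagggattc
NARS, chr18:57621804-57621833: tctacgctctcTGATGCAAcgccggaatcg
TARS, chr5:33440956-33440985: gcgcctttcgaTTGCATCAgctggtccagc
YARS2, chr12:32756076-32756105: atccacactgcTGATGGAAaaattaagttt

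In 5 of these genes (AARS, CARS, IARS, MARS and TARS) the match read TTGCATCA, and NARS held the same 8 letters on the other strand, TGATGCAA. The matches in CARS, IARS, MARS, NARS and TARS lay within 20 bases of the annotated start. A pair of interferon-related motifs was searched as well, since WARS rose. The gamma-activated site, spelled TTCNNNGAA, reads the same on both strands and was found in 3 of 16 cytosolic members, 2 of 14 mitochondrial members and 9.38% of genes. The interferon-stimulated response element, spelled GAAANNGAA followed by A and searched on both strands, was found in 1 cytosolic member, 1 mitochondrial member and 4.38% of genes. Without the final A it was found in 3 and 1 members and in 9.86% of genes. WARS held both, in the window of another of its annotated starts, and the sites are shown because its mRNA rose most.
WARS gamma-activated site, chr14:100375471-100375500: agctcaagtgtTTCTGAGAAtctgggtgat
WARS interferon-stimulated response element, chr14:100375384-100375413: ttttcagaaggGAAACTGAAAgaaagaggg

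Matches of different motifs shared no base in these windows, and a match is a description of the letters, not evidence of binding. With only the first listed window of each gene, which was counted first, TGATGNAA was found in 6 cytosolic members, the gamma-activated site in 2 and the response element in 0. All windows were then used because several genes have more than 1 annotated start. The motifs and their spellings were chosen after the members' values had been seen.

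Averaged over both guides, 4 members rose and 15 fell relative to sgRosa (limma on log2 of CPM + 0.5, Benjamini-Hochberg adjustment over all genes, threshold 0.05). Over all genes 20.9% were called higher and 20.6% lower, beside 10.3% and 38.5% of the members. Both directions together, 19 of 39 members were called, near the share for all genes. The 4 that rose, WARS, CARS, SARS and MARS, were all cytosolic. Of the cytosolic enzymes 4 rose and 7 fell, with a median log2 change of -0.09. Of the mitochondrial enzymes 0 rose and 7 fell, with a median of -0.25, beside a median of -0.05 over all genes. The cytosolic median was 0.06 without sgRosa replicate 2. AIMP1 fell, and AIMP2 changed by -0.08 ± 0.16 (SE), which did not pass the test.

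**Figure D1:**
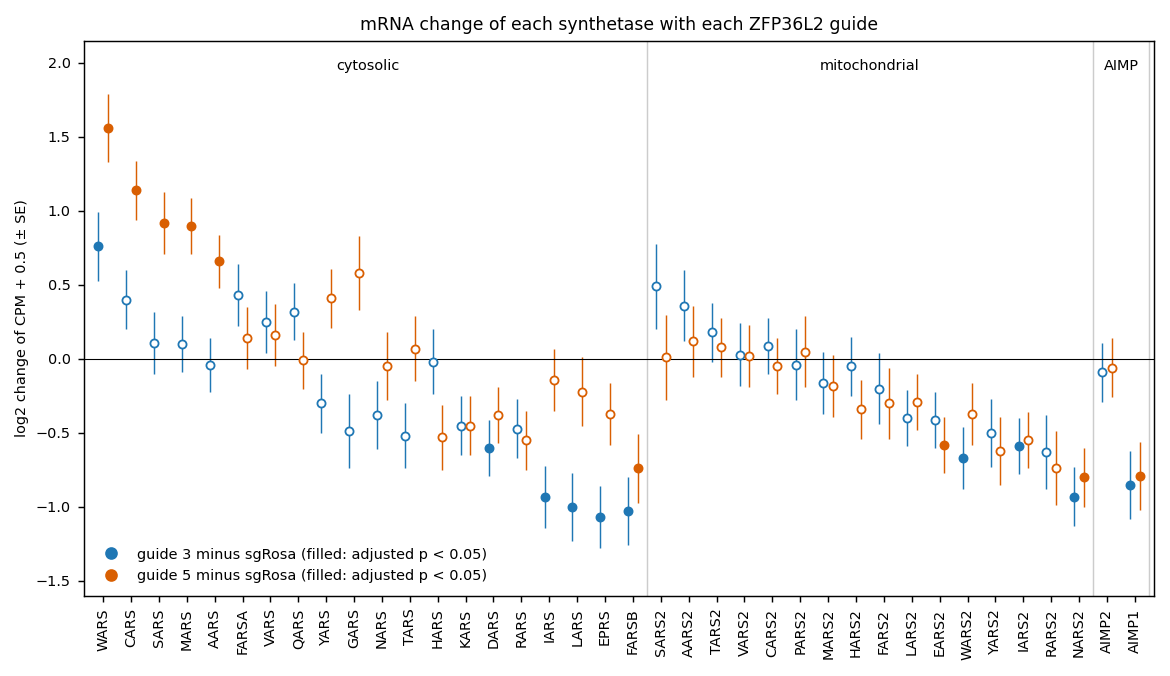
Log2 change (y axis, CPM + 0.5, ± SE) of 38 members with guide 3 and with guide 5, each relative to the same 3 sgRosa libraries, ordered by the mean of both guides within each class. Filled points passed the test. Of those that rose, WARS passed with both guides, while CARS, SARS, MARS and AARS passed with guide 5 only. Of those that fell, FARSB, NARS2 and AIMP1 passed with both guides, and the others with guide 3 or guide 5 alone.

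WARS rose most. Its CPM was 147, 241 and 167 with sgRosa, 326 and 287 with guide 3 and 534 and 533 with guide 5. All 4 guide libraries lay above every sgRosa library, which held for 19.8% of all genes and, among members, for WARS and CARS. Its log2 change was 1.16 ± 0.19 (SE; adjusted p = 0.00052, limma), with 0.76 ± 0.23 for guide 3 and 1.56 ± 0.23 for guide 5.

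CARS, the cysteinyl enzyme, was at 52.4, 69.3 and 65.9 CPM with sgRosa, 80.8 and 83.1 with guide 3 and 140 and 134 with guide 5. The groups did not overlap, and the log2 change was 0.77 ± 0.17 (adjusted p = 0.0035). SARS, the seryl enzyme, was at 112, 160 and 116 CPM with sgRosa, 137 and 139 with guide 3 and 230 and 253 with guide 5. MARS, the methionyl enzyme, was at 190, 223 and 225 CPM with sgRosa, 220 and 234 with guide 3 and 408 and 384 with guide 5. For SARS and MARS the guide 3 libraries lay within or beside the sgRosa range and the guide 5 libraries above it. Their log2 changes over both guides were 0.51 ± 0.17 (adjusted p = 0.032) and 0.50 ± 0.16 (adjusted p = 0.023). Neither MARS nor SARS passed the test without sgRosa replicate 1 or without any single guide library, and SARS also failed without sgRosa replicate 3, whereas WARS and CARS passed in each of these fits. MARS shares 355 exon bases with DDIT3 and 519 with ARHGAP9 on the opposite strand, and whether the counting used strand is not given in the sources used here. DDIT3, a stress-response transcription factor, was at 5.07 to 10.7 CPM with sgRosa and 14.9 to 20.0 CPM with the guides, and the part of its reads in the MARS value was not tested.

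The members with the lowest log2 changes, before the GC correction given below, came from both compartments. FARSB, the beta subunit of the phenylalanyl enzyme, was at 148, 237 and 141 CPM with sgRosa, 84.2 and 83.0 with guide 3 and 98.5 and 106 with guide 5. NARS2, the mitochondrial asparaginyl enzyme, was at 48.4, 40.7 and 44.2 CPM with sgRosa, 22.6 and 23.5 with guide 3 and 25.8 and 24.7 with guide 5. AIMP1, a scaffold of the multisynthetase complex, was at 133, 176 and 105 CPM with sgRosa, 82.7 and 67.3 with guide 3 and 73.3 and 82.4 with guide 5. In these 3 genes every guide library lay below every sgRosa library, which held for 13 of the 39 members and for 23.7% of all genes. The log2 change was -0.88 ± 0.20 for FARSB (adjusted p = 0.004), -0.86 ± 0.17 for NARS2 (adjusted p = 0.0019) and -0.82 ± 0.20 for AIMP1 (adjusted p = 0.0059).

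RARS2, the mitochondrial arginyl enzyme, was at 56.6, 86.9 and 48.1 CPM with sgRosa, 42.3 and 37.4 with guide 3 and 35.6 and 37.9 with guide 5, with a log2 change of -0.69 ± 0.21 (adjusted p = 0.02). WARS2, the mitochondrial partner of WARS, was at 27.1, 23.3 and 22.3 CPM with sgRosa, 15.2 and 14.8 with guide 3 and 18.2 and 19.1 with guide 5, with a log2 change of -0.52 ± 0.18 (adjusted p = 0.033). WARS2 thus fell while WARS, which charges the same amino acid in the cytosol, rose. Other mitochondrial enzymes that fell included IARS2, YARS2 and EARS2, with log2 changes between -0.57 and -0.50. Of the 10 mitochondrial enzymes that did not pass, LARS2 had the lowest value, -0.34 ± 0.16, and SARS2 the highest, 0.25 ± 0.24. Of the cytosolic enzymes EPRS, LARS, IARS, RARS, DARS and KARS fell as well, by 0.72 to 0.45 on the log2 scale. EPRS, which joins both glutamate and proline to their tRNAs, was at 750, 746 and 584 CPM with sgRosa, 358 and 302 with guide 3 and 470 and 601 with guide 5, with a log2 change of -0.72 ± 0.18 (adjusted p = 0.0067) and a guide 5 library within the sgRosa range. LARS, the leucyl enzyme, was at 449, 606 and 371 CPM with sgRosa, 251 and 216 with guide 3 and 370 and 435 with guide 5, with a log2 change of -0.61 ± 0.19 (adjusted p = 0.023). Guide 3 libraries were the low ones for both EPRS and LARS. As these are bulk samples, fewer cells that express a gene and less of its RNA per cell cannot be told apart.

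**Figure D2:**
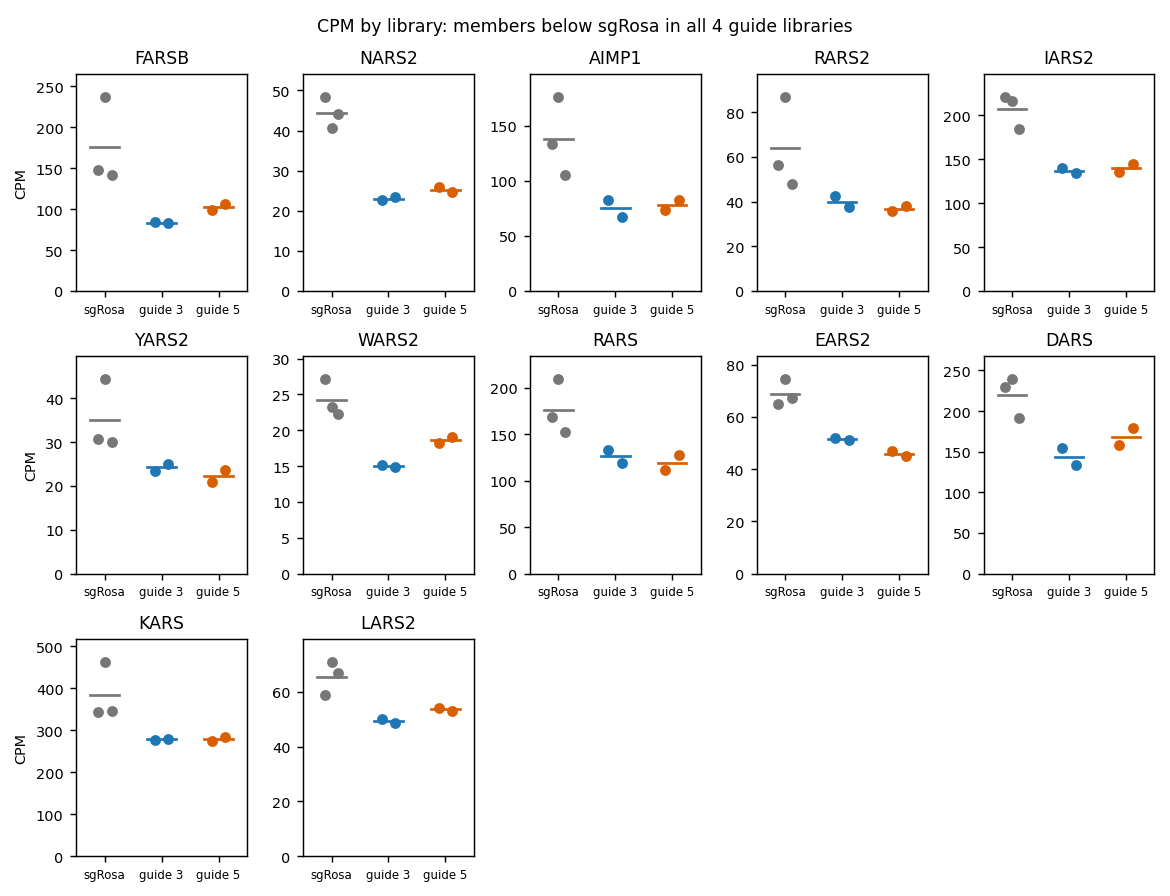
CPM (y axis, from 0) in each library for 12 of the members with all 4 guide libraries below all 3 sgRosa libraries. Points are libraries and bars are group means; FARSB, NARS2 and AIMP1 have the 3 lowest log2 changes over both guides, -0.88, -0.86 and -0.82.

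The GC content of the transcripts moved with the calls. The median was 43.2% for the 15 members that fell, 52.4% for the 4 that rose, 54.5% for the others and 49.1% over all genes. With log2 values corrected for transcript GC content and length the same 4 members rose and 12 fell, beside 22.1% and 18.7% of all genes. Only 6 of the 12 were among the 15: AIMP1, EARS2, EPRS, FARSB, NARS2 and YARS2. The other 9 no longer passed, among them RARS2 at -0.25 (adjusted p = 0.093), LARS at -0.18 (adjusted p = 0.079) and WARS2 at -0.10 (adjusted p = 0.64), and CARS2, FARS2, HARS, LARS2, VARS and VARS2 passed in their place. The falls that still passed were smaller for AIMP1 (-0.25), FARSB (-0.43), NARS2 (-0.50) and EPRS (-0.36), and EARS2 was then the lowest member at -0.86. The count of 15 also fell to 9 without sgRosa replicate 1, where 15.4% of all genes were called lower. It fell to 8 and 4 without guide 3 replicates 1 and 2 (14.1% and 10.2% of all genes) and to 3 and 7 without guide 5 replicates 1 and 2 (9.74% and 14.8%). FARSB, NARS2 and AIMP1 passed in each of these fits.

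With guide 3 alone 1 member rose, WARS, and 9 fell (EPRS, FARSB, LARS, IARS, DARS, NARS2, WARS2, IARS2 and AIMP1), beside 21.2% and 18.9% of all genes. With guide 5 alone 5 rose (WARS, CARS, SARS, MARS and AARS) and 5 fell, among them NARS2, AIMP1, FARSB and EARS2, beside 12.2% and 7.68% of all genes. With GC and length correction AIMP1 (-0.15, adjusted p = 0.22), DARS, IARS2, NARS2 and WARS2 no longer passed as lower with guide 3, and 8 others did, for 12 in all beside 16.0% of all genes. With guide 5 NARS2 no longer passed and 4 others did, for 8 in all beside 11.8%. These contrasts share the 3 sgRosa libraries, so their values are given side by side only. The median log2 change of the cytosolic enzymes was -0.34 with guide 3 and 0.03 with guide 5, and that of the mitochondrial enzymes was -0.20 and -0.30. The cytosolic median with guide 3 was -0.17 without sgRosa replicate 2 and also after GC and length correction, and with guide 5 it was 0.13 and 0.11. The mitochondrial median with guide 3 was -0.25 without sgRosa replicate 2 and -0.24 after GC and length correction, below the cytosolic median in both fits. Without sgRosa replicate 1 it was -0.38, beside -0.42 for cytosolic enzymes. The order of the classes with guide 3 thus depended on the fit. Cytosolic enzymes took 0.614 to 0.623% of reads with sgRosa, 0.489 and 0.491% with guide 3 and 0.684 and 0.723% with guide 5. Mitochondrial enzymes took 0.0887 to 0.1045% with sgRosa and 0.0763 to 0.0777% in the guide libraries, so that their share was lower in all 4 guide libraries while the cytosolic share was lower with guide 3 and higher with guide 5.

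Compared directly, both guide 5 libraries lay above both guide 3 libraries for 14 of 20 cytosolic enzymes and 3 of 17 mitochondrial enzymes (LARS2, NARS2 and WARS2), beside 26.8% of all genes. The median difference, guide 5 minus guide 3, was 0.64 on the log2 scale for cytosolic enzymes, -0.10 for mitochondrial enzymes and -0.03 over all genes. No member passed the adjusted threshold (limma), whereas 0.351% of all genes passed in the higher and 0.0614% in the lower direction. For the members limma voom on the recovered reads also called 0. At an unadjusted p under 0.05, 11 members were higher with guide 5 and 0 lower, all 11 cytosolic, beside 4.11% and 6.11% of all genes. The call depends on the fit. Without sgRosa replicate 2, which changes only the estimated spread, 10 members passed as higher, beside 2.04% of all genes. After GC and length correction 9 passed, beside 1.2%, and with quantile normalization 5, beside 0.991%.

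**Figure D3:**
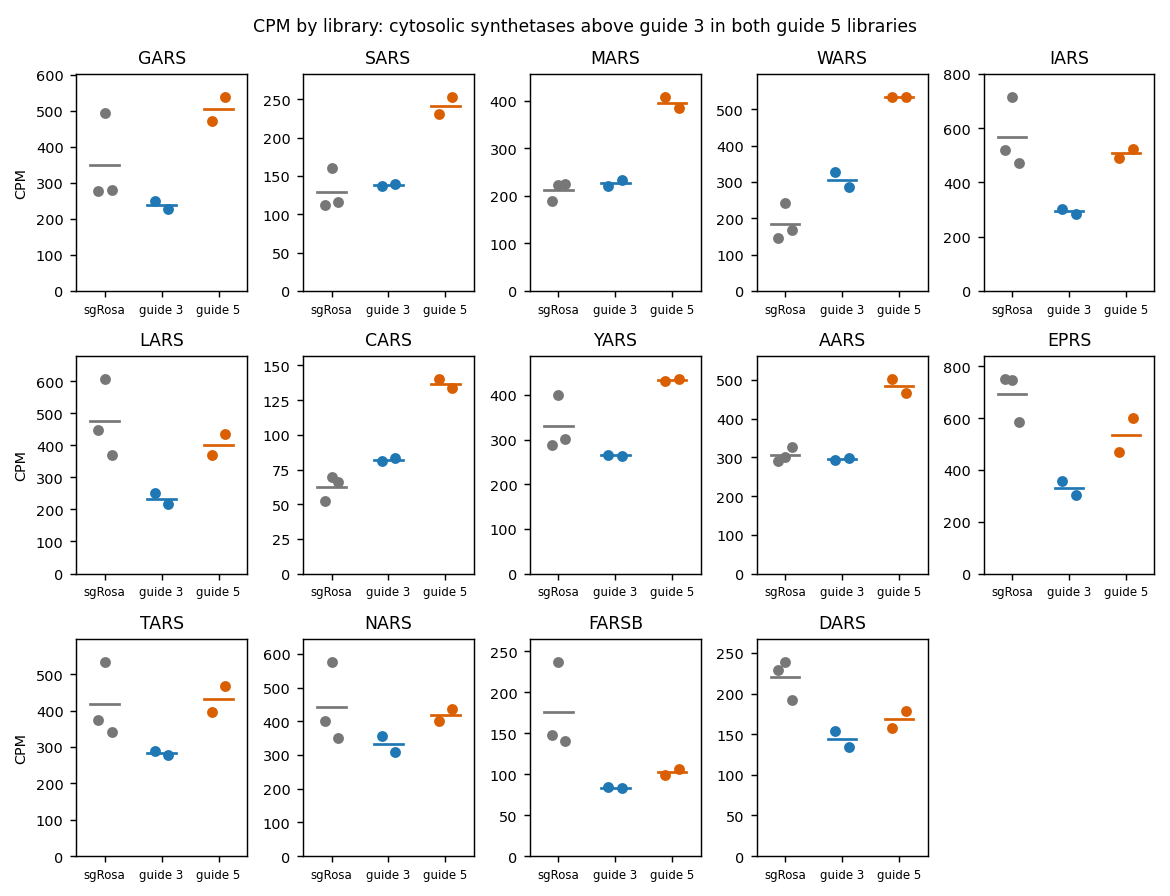
CPM (y axis, from 0) in each library for the 14 cytosolic enzymes whose 2 guide 5 libraries both exceed both guide 3 libraries. Points are libraries and bars are group means; sgRosa replicate 2 is the highest sgRosa library in panels such as GARS, IARS and LARS.

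The members named here were chosen after their values were seen. GARS, the glycyl enzyme, was at 278, 495 and 280 CPM with sgRosa, 251 and 228 with guide 3 and 473 and 539 with guide 5. Its difference between guides was 1.08 on the log2 scale (95% confidence interval 0.48 to 1.67; adjusted p = 0.17). The sgRosa replicate 2 value lay within the guide 5 range, and the other sgRosa values lay between the guides. AARS, the alanyl enzyme, was at 290, 301 and 326 CPM with sgRosa, 293 and 299 with guide 3 and 501 and 465 with guide 5, with a difference of 0.71 (0.27 to 1.14; adjusted p = 0.22). YARS, the tyrosyl enzyme, was at 288, 401 and 302 CPM with sgRosa, 266 and 263 with guide 3 and 432 and 435 with guide 5. YARS was the only member with both guide 3 libraries below and both guide 5 libraries above every sgRosa library, an arrangement found in 0.245% of all genes. IARS, the isoleucyl enzyme, was at 521, 715 and 470 CPM with sgRosa, 303 and 283 with guide 3 and 489 and 524 with guide 5, so that it was low with guide 3 and within the sgRosa range with guide 5. Among mitochondrial enzymes the difference ran from -0.49 for SARS2 (-1.18 to 0.21) to 0.31 for WARS2 (-0.20 to 0.81), and each of their 17 intervals included 0.

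**Figure D4:**
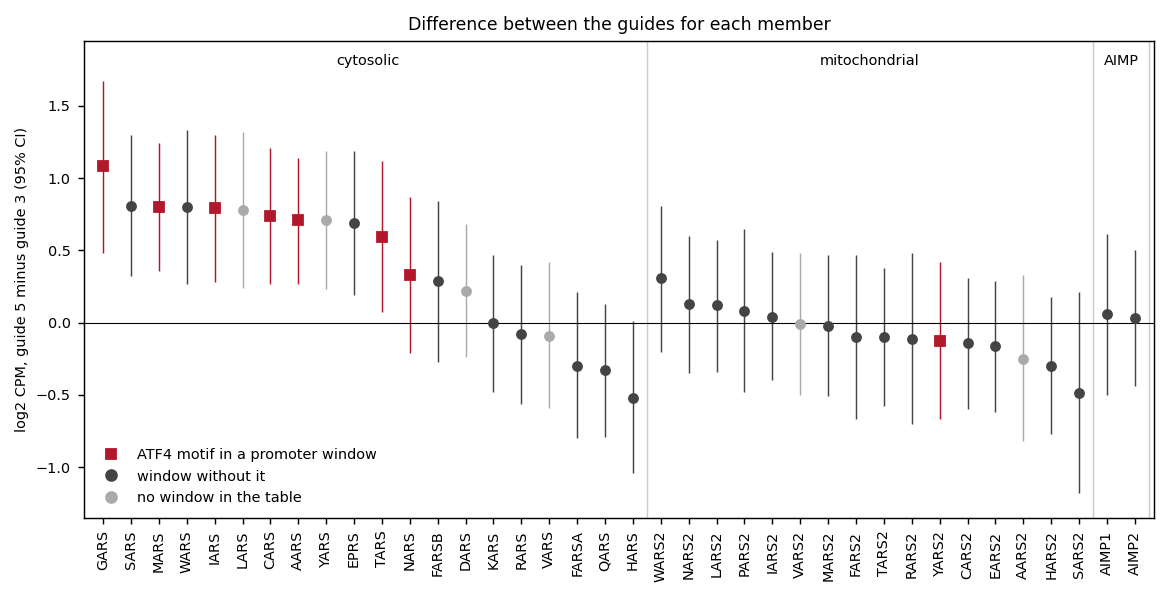
Difference in log2 CPM between guide 5 and guide 3 (y axis, 95% confidence interval) for 38 members, by class. Squares mark members with the ATF4 motif in a promoter window; all 7 such cytosolic enzymes lie above 0, and none of the differences shown passed the adjusted threshold.

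The 7 cytosolic enzymes with TGATGNAA in a window had differences between guides of 0.33 to 1.08, with a median of 0.74. The 9 with a window and no match ranged from -0.52 to 0.81 around a median of -0.00. Both SARS and WARS, at 0.81 and 0.80, belonged to the second group, as did EPRS at 0.69. YARS2, the mitochondrial member with a match, was at -0.13. The cytosolic enzymes without a window, LARS, YARS, DARS and VARS, were at 0.78, 0.71, 0.22 and -0.09 and are in neither group. These medians are a description, since the motif was picked with the values known.

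Ratios of each cytosolic enzyme to its mitochondrial partner were compared in 18 pairs. All 4 guide libraries lay above the sgRosa libraries in 4 pairs (WARS/WARS2, CARS/CARS2, YARS/YARS2 and FARSA/FARS2) and below them in 1 (EPRS/PARS2), and the groups overlapped in 13. Among single genes 19.8% lay above and 23.7% below in this way, and the share among other gene pairs was not computed. EPRS and FARS2 each stand in more than 1 pair, so the pairs are not independent. The largest shift was in WARS/WARS2, whose log2 ratio was 2.44, 3.37 and 2.90 with sgRosa, 4.42 and 4.28 with guide 3 and 4.88 and 4.80 with guide 5. The mean rose by 1.69 on the log2 scale, with an exact two-sided permutation p of 0.0571, the smallest that 3 against 4 libraries allow, and 0.206 after Benjamini-Hochberg adjustment over the 18 pairs. No pair could therefore pass the threshold. The ratios were not corrected for GC content, which differed within pairs such as WARS (51.8%) and WARS2 (42.5%). With GC and length correction WARS changed by 1.16 and WARS2 by -0.10 over both guides. EPRS and PARS2 were then at -0.36 and -0.13, YARS and YARS2 at -0.19 and -0.47. FARSA and FARS2 were at -0.22 and -0.47, CARS and CARS2 at 0.69 and -0.26. The part of GC content in the ratios was not tested. In 15 of 18 pairs the mean ratio was higher with guide 5 than with guide 3, and no share over other gene pairs was computed for this either. CARS/CARS2 rose from -0.51 ± 0.12 (SD, n = 3) to -0.20 with guide 3 and 0.69 with guide 5, so that the mitochondrial partner had more reads in sgRosa and guide 3 libraries and fewer in guide 5 libraries.

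**Figure D5:**
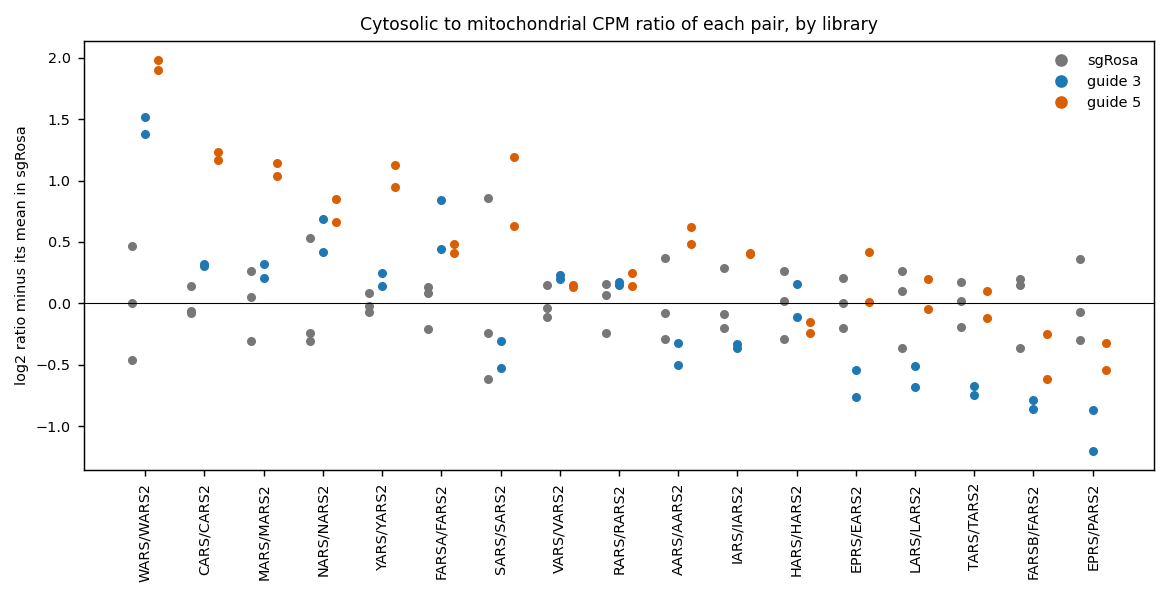
Log2 ratio of cytosolic to mitochondrial CPM in each library minus its mean in sgRosa (y axis) for 17 pairs, ordered by the mean shift in the guide libraries. WARS/WARS2 is the pair with the highest shift, 1.69, without GC correction.

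The multisynthetase complex, with 8 enzymes and both AIMP proteins among the members, held 1 member that rose (MARS) and 7 that fell of 10, with a median of -0.50, beside 20.9% and 20.6% of all genes. The 12 cytosolic enzymes outside it held 3 that rose and 1 that fell, with a median of 0.13. The third scaffold of the complex, EEF1E1, is not a member, and its log2 change was -0.92 ± 0.18 (adjusted p = 0.0022). After GC and length correction 1 complex member rose and 2 fell, with a median of -0.13, beside 22.1% and 18.7% of all genes. Of the cytosolic enzymes outside the complex, CARS, SARS and WARS rose in that fit, and FARSB, HARS and VARS fell. This grouping was made after the values were seen.

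Other genes that handle tRNA or translation were set beside the members, with the same 20.9% and 20.6% of all genes called over both guides. Of 14 tested tRNA charging factors 0 rose and 6 fell over both guides, among them DTD2, which removes wrongly formed D-amino acid products from tRNA, at -1.07 ± 0.20 (adjusted p = 0.0015), and TRNT1, which adds the CCA end to tRNAs, at -0.92 ± 0.19 (adjusted p = 0.0025). QRSL1, a subunit of the mitochondrial enzyme that makes glutaminyl-tRNA, fell by 0.81 (adjusted p = 0.005). Of 9 cytosolic elongation and termination factors 0 rose and 2 fell, EEF1A1, which carries charged tRNA to the ribosome, and GSPT1, a release factor. Of 11 mitochondrial translation factors 0 rose and 3 fell (GFM1, GUF1 and MTIF2). Of 72 mitochondrial ribosomal proteins 5 rose and 25 fell, with a median of -0.27. Values with GC and length correction are not given for these lists, and the part of GC content in their falls was not tested.

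Genes of the ATF4 and amino acid response moved differently between the guides. Of 32 tested, 23 rose and 2 fell over both guides, beside 20.9% and 20.6% of all genes. With guide 3, 12 rose and 3 fell (all genes 21.2% and 18.9%), and with guide 5, 27 rose and 1 fell (all genes 12.2% and 7.68%). Between guides 11 were higher with guide 5, beside 0.351% of all genes, and 0 lower, with a median difference of 0.98. Without sgRosa replicate 2, 23 were higher, beside 2.04% of all genes. CTH, which makes cysteine from cystathionine, was at 7.02, 6.31 and 5.57 CPM with sgRosa, 2.93 and 2.56 with guide 3 and 36.6 and 39.5 with guide 5 (difference 3.57, adjusted p = 4.5e-05). STC2, a secreted stress-response glycoprotein, was at 0.561 to 1.62 CPM with sgRosa, 3.48 and 3.93 with guide 3 and 61.0 and 55.9 with guide 5 (difference 3.81, adjusted p = 0.0002). Of 23 interferon gamma response genes 15 rose and 0 fell over both guides, beside 20.9% and 20.6% of all genes. Between guides 0 passed, beside 0.351% of all genes higher and 0.0614% lower. Their differences ran from -0.5 to 1.45 around a median of 0.10, so these genes are not shown to be alike with both guides. GBP2, an interferon-induced GTPase, rose by 2.61 ± 0.22 (adjusted p = 2.1e-06).

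Levels were compared between genes as CPM per kilobase of exon in the sgRosa libraries. The median was 63.2 for cytosolic enzymes, 10.3 for mitochondrial enzymes and 7.44 over all genes. EPRS was highest at 127 ± 17.3 (SD, n = 3), followed by NARS at 108 (85.5 to 141), and their ranges overlapped. IARS2, at 49.7 ± 4.88, was the highest mitochondrial enzyme, and CARS, at 6.23 ± 0.891, the lowest cytosolic one. SARS2 was lowest of all at 1.91 ± 0.611. The order depends on the length used: per kilobase of transcript TARS (165), KARS (159) and NARS (143) lay above EPRS (138), CARS was at 22.7, and PARS2 (3.32) lay below SARS2 (3.79). The class medians were then 98.2 and 15.4. The values of SARS2 and VARS2 are uncertain, because 46.2% and 22.0% of their exon bases are shared with another gene on the same strand. HARS and HARS2 share 437 exon bases on opposite strands, and AIMP2 shares 28.9% of its exon bases with EIF2AK1 on the opposite strand.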

How the data were processed

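RNA of 7 MOLM13 libraries was analysed from the authors' deposited tables. The authors deposited FPKM per library, which are per kilobase of gene span. They also deposited group means of CPM, treated here as signal because their library sizes were scaled, and log2 fold changes with p-values and false discovery rates, which were not used for the results. The submitters' processing notes name, without roles, the builds GRCh38.p7 and hg38 and the tools STAR 2.5.3, limma, HTSeq and edgeR. Dividing CPM by FPKM gave whole lengths for all 11408 genes (within 0.01 bases). FPKM times this length gave CPM and whole reads for 100% of values; a further 173 genes without values were left out.

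Log2 of CPM + 0.5 was the input to limma (version 3.58.1, R 4.3.3), using a variance trend, a mean per group (sgRosa, guide 3, guide 5) and Benjamini-Hochberg adjustment over the 11408 genes, all of which passed a filter of at least 1 CPM in at least 2 libraries. Fold changes are on this scale and understate changes of low genes. The contrast of both guides with sgRosa was tested on simulated data. There both guides changed the same genes by the same folds, with no GC or library shift. The other contrasts and the effect of such shifts were not checked in this way. The reads carry no molecular identifiers. Members named with values were up to 6 highest and 6 lowest called, WARS and WARS2, and others where stated; pseudogene copies were not examined. The values of 1 member are not reported here, though counts and medians include it. The members, lists and groupings were chosen with earlier results of these data known. Alternatives were other pseudocounts, filters, scalings, a GC and length correction, a replicate block, deposited FPKM, voom on recovered reads (added after seeing the data) and each library left out.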

Additional observations from a re-analysis of the deposited data

How the results depend on the processing

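WARS, CARS, FARSB and AIMP1 passed the threshold over both guides in all 19 alternatives and NARS2 in 18 of 18, and 0 of the 11 members tracked reversed, but sizes moved, from -1 to -0.25 for AIMP1, -1.02 to -0.43 for FARSB and -0.92 to -0.50 for NARS2, each smallest with GC and length correction. EPRS passed in 18, LARS in 14, MARS in 13, SARS in 11, RARS2 in 15 of 18 and WARS2 in 11 of 18. All genes passed the filter, so the fit without it repeated the main fit. The other pseudocounts and a filter on a mean CPM of at least 5 gave the same member calls. The 11 tracked members, apart from WARS2, were chosen by their calls in the main fit. Counts without sgRosa replicates 1, 2 and 3 are given in that order. Over both guides 2, 5 and 3 members were higher, beside 15.3%, 27.0% and 22.8% of all genes. With guide 3, 0, 2 and 1 were higher, beside 16.2%, 27.9% and 23.7%. With guide 5, 4, 7 and 5 were higher, beside 8.58%, 19.6% and 14.8%. Between guides 0, 10 and 0 were higher with guide 5, beside 0.245%, 2.04% and 0.403%. Members lower ranged from 3 to 15 over both guides, 0 to 13 for guide 3 and 0 to 9 for guide 5; where this leaves a guide with 1 library, that library is assumed to vary like the other groups. The mitochondrial median over both guides ranged from -0.42 to -0.19 with each library left out in turn. It was -0.16 with FPKM as deposited (33 of the 39 members tested), -0.32 with quantile normalization and -0.19 with median of ratios scaling. A single mean for both guides called 2 members higher, beside 19.3% of all genes. The share of all genes called moved with the fit as well. With guide 3, 14.7%, 20.7% and 24.7% of all genes were lower without sgRosa replicates 1, 2 and 3. For guide 3, 2 members were higher with quantile normalization, median of ratios scaling or GC and length correction, beside 20.5%, 23.9% and 20.0% of all genes. With quantile normalization 18 were lower, beside 28.4% of all genes, and with median of ratios scaling 14, beside 21.7%. For guide 5, members lower came to 2 with FPKM as deposited, where NARS2 was not tested, or without a variance trend, beside 7.42% and 6.73% of all genes. They came to 9 with quantile normalization (16.1% of all genes) and 8 with median of ratios scaling (9.71%) or GC and length correction (11.8%). Guide 5 minus guide 3 gave 5 members as higher with quantile normalization (0.991% of all genes) and 9 with GC and length correction (1.2%). The replicate block called 3 higher and 12 lower over both guides, beside 22.2% and 24.6% of all genes, and 1 between guides (GARS), beside 0.833%. Deviations from group means of same-numbered libraries correlated between -0.49 and 0.37. With 2 libraries per guide the deviations within a guide mirror each other, so this cannot show whether the numbers pair the libraries. The causes of these changes were not tested. The planned edgeR and DESeq2 fits and TMM scaling were not run. The deposited unit is FPKM, and of the count-based fits only limma voom was run on the recovered reads. Quantile normalization moved the median of all genes to -0.11. With 2 libraries per guide, a member that did not pass is not shown to be unchanged.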
